A study of Rattus norvegicus with 82 samples.

Results

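The 3 genes described here set how brain tissue reads corticosteroids. Nr3c1 encodes the glucocorticoid receptor, Nr3c2 the mineralocorticoid receptor and Hsd11b1 the enzyme 11beta-hydroxysteroid dehydrogenase type 1. They were taken by symbol from the array platform's annotation, and are 3 of the 14217 genes it names and 4 of the 31042 probe sets tested. Nr3c1 had 2 probe sets, 1368221_at and 1368222_at, and Nr3c2 (1368476_at) and Hsd11b1 (1386953_at) had 1 each. For Nr3c1 the brighter probe set, 1368221_at, is used unless the second is named.

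Both receptors bind corticosterone, the main glucocorticoid of the rat, and act as transcription factors in the nucleus. The mineralocorticoid receptor binds it more tightly and is known for dense expression in the hippocampus, whereas the glucocorticoid receptor is found in most brain cells and responds mainly when corticosterone is high. Hsd11b1 acts mostly as a reductase in intact cells and regenerates active glucocorticoid from its inert 11-keto form, so it raises the steroid seen by receptors inside the cell.

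RNA of 7 rat brain regions was put on 82 arrays. The regions were the hippocampus, septum, amygdala, frontal cortex, dorsal raphe, locus coeruleus and hypothalamus. The treatments were ADX, pADX and Sham, each with arrays marked PM and AM. ADX usually stands for adrenalectomy, which removes the body's main source of corticosterone, and Sham for a control operation, but the labels spell out neither. The sources used here do not say what the p in pADX means, whether hormone was replaced, or the strain, sex and age of the rats. Combining region, treatment and time gave 41 groups over 80 arrays, of which 39 held 2 arrays and 2 held 1 (frontal cortex ADX AM and frontal cortex Sham AM). The labels do not say whether arrays came from separate rats or pools, so p-values measure the spread between these arrays, which may be technical. These are bulk samples, in which fewer cells of a type and less RNA per cell cannot be told apart.

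Of the 3 genes, Nr3c1 alone was matched in the promoter sequences used here, by 2 RefSeq start sites that lie 780 bases apart on the minus strand of chromosome 18 (build GRCr8). Each window runs from 250 bases before the start to 50 after it, and both are shown because each surrounds a listed start of the gene. The gene's annotated span, 31522783 to 31644508, reaches upstream of both windows, so they need not be its only starts. Capitals mark the GC box GGGCGG or its reverse complement CCGCCC, with overlapping matches joined. Start 1 lies at chr18:31614170-31614469 and start 2 at chr18:31613390-31613689.
Nr3c1 start 1: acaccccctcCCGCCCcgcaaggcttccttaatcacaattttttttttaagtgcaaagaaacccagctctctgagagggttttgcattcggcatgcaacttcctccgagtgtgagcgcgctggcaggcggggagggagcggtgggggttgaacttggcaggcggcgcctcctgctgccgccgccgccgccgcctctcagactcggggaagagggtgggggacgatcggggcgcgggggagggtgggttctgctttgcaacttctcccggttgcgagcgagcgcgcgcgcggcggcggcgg
Nr3c1 start 2: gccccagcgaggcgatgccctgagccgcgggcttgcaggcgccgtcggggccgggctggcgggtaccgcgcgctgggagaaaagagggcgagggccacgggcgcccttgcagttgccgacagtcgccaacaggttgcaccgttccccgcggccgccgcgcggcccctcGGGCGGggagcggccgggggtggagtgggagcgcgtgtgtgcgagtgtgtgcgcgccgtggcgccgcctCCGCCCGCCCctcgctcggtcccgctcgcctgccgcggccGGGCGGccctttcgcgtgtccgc
The window of start 1 held 31 CpG pairs, 66.0% G or C and 1 GC box. The window of start 2 held 49 CpG pairs, 79.0% G or C and 4 GC boxes, against a median of 7 CpG pairs over all 33469 promoter windows. A GC box was present in 33.1% of those windows. The half-site of the glucocorticoid response element, AGAACA or its reverse complement TGTTCT, was searched on both strands and occurred in neither window, while 20.7% of all windows held it. Both windows thus had more CpG pairs than the median promoter.

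The signals are the deposited linear intensities after quantile normalization over all arrays and a floor of 16, on the log2 scale. Before it, 45 arrays had a common trimmed mean and the other 37 ranged from 34.1 to 171. Septum, amygdala and frontal cortex arrays all shared that value and no hypothalamic or hippocampal array did, so levels between regions rest on the normalization. It was shared by 0 of 4 ADX, 3 of 4 pADX and 4 of 4 Sham arrays of the locus coeruleus, and by 0 of 4 ADX, 0 of 4 pADX and 2 of 4 Sham arrays of the dorsal raphe. Marker genes of the frontal cortex, hypothalamus and hippocampus were highest in the arrays so labelled, without overlap. Markers of the dorsal raphe summed to 1016–2766 in its own arrays and also to 308–1687 in the locus coeruleus arrays. Locus coeruleus markers had their highest median there but overlapped with other regions. The lists chosen for septum and amygdala were not highest there, so those 2 labels are not borne out by markers. Region is read from the title and description, with which the source name disagreed for 4 regions (it gave hippocampi for the hypothalamus, and frontal cortex for the septum, locus coeruleus and dorsal raphe). Both hippocampal pADX arrays are labelled PM, and that time is in doubt from their place in the series.

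The mineralocorticoid receptor had by far the steepest regional profile of the 3 genes. Nr3c2 was highest in the hippocampus, where its log2 signal ran from 8.81 through a median of 9.22 to 9.87 over 10 arrays. It followed in the septum with 8.01, 8.29 and 8.69 (lowest, median and highest of 12 arrays) and in the amygdala with 7.58, 7.94 and 8.39. No septum array reached the lowest hippocampal one. The frontal cortex lay at 7.32, 7.55 and 7.82 over 10 arrays, the dorsal raphe at 6.80, 7.20 and 7.61, and the locus coeruleus at 6.70, 6.86 and 7.15. The hypothalamus was lowest, at 6.56, 6.75 and 6.95. By median, the hippocampus, septum and amygdala therefore stood above the brainstem nuclei and the hypothalamus. Amygdala and dorsal raphe arrays overlapped, and the septum and amygdala labels were not borne out by markers.

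Region means of Nr3c2 were 9.28 ± 0.34 in the hippocampus (SD, n = 10) and 6.74 ± 0.13 in the hypothalamus (SD, n = 12). The difference among the 7 regions passed limma's F test over the 80 grouped arrays (F = 298, Benjamini-Hochberg adjusted p = 4.32e-42), as did 65.3% of all probe sets. Nr3c2 ranked 235 among the 31042 by this F. Of the 21 pairs of regions, 20 passed for Nr3c2 (limma, adjusted p of at most 0.05), and 14 pairs did not overlap in any array. Over all probe sets, 33.9% of such pairs passed and 7.97% did not overlap. Between neighbours in the order, the hippocampus exceeded the septum by 0.96 (SE 0.07, limma adjusted p = 1.86e-17), and the steps from septum to dorsal raphe were 0.32 to 0.40. As deposited, where the hippocampus and septum differed in scale, hippocampus over septum was 0.14 (adjusted p = 0.384). Dorsal raphe over locus coeruleus was 0.33 (limma adjusted p = 0.000879). Locus coeruleus over hypothalamus, at 0.14 (limma adjusted p = 0.141), was the one pair that did not pass. As deposited, septum over amygdala (adjusted p = 0.103) and dorsal raphe over locus coeruleus (0.593) did not pass and locus coeruleus over hypothalamus did (0.00176). In Sham arrays alone amygdala over frontal cortex (0.158) and dorsal raphe over locus coeruleus (0.154) did not pass.

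Hsd11b1 was also highest in the hippocampus and lowest in the hypothalamus. Its log2 signal was 8.52, 8.72 and 9.02 in the hippocampus (lowest, median, highest), 7.81, 8.37 and 8.78 in the frontal cortex, and 7.75, 8.13 and 8.35 in the amygdala. It was 7.38, 7.75 and 8.37 in the septum, 7.17, 7.67 and 7.97 in the locus coeruleus, and 7.06, 7.61 and 8.13 in the dorsal raphe. Hypothalamic arrays lay at 6.72, 7.003 and 7.44. The cortex and amygdala thus came before the septum, whereas for Nr3c2 the septum came second. Amygdala over septum was 0.30 for Hsd11b1 (limma adjusted p = 0.0111). It kept its direction but did not pass as deposited (limma adjusted p = 0.187) or in Sham arrays alone (0.379).

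The Hsd11b1 means ran from 8.74 ± 0.18 in the hippocampus (SD, n = 10) to 7.05 ± 0.24 in the hypothalamus (SD, n = 12), and the region F test passed (limma F = 63.6, adjusted p = 1.04e-23). Over all probe sets, 65.3% passed that F test. Of the 21 pairs of regions 17 passed for Hsd11b1 and 7 did not overlap, against 33.9% and 7.97% over all probe sets. Hippocampus over frontal cortex was 0.50 (limma adjusted p = 7.82e-05) and dorsal raphe over hypothalamus was 0.59 (limma adjusted p = 5.18e-07). The neighbours frontal cortex and amygdala differed by 0.15 (adjusted p = 0.282), septum and locus coeruleus by 0.18 (adjusted p = 0.113), and locus coeruleus and dorsal raphe by 0.00 (adjusted p = 1), none past limma's threshold. On the values as deposited the order of hippocampus and frontal cortex was the other way round, with a difference of -0.33, and in Sham arrays alone it was 0.24 (limma adjusted p = 0.483).

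The glucocorticoid receptor was the most even of the 3 genes. The log2 signal of Nr3c1 was 8.52, 8.72 and 8.89 in the septum (lowest, median, highest), 8.46, 8.66 and 9.13 in the hippocampus, and 8.38, 8.68 and 9.02 in the hypothalamus. It was 8.06, 8.52 and 8.77 in the amygdala, 8.11, 8.44 and 8.71 in the dorsal raphe, 8.05, 8.36 and 8.84 in the locus coeruleus, and 7.66, 8.45 and 8.56 in the frontal cortex. Every pair of regions overlapped. The largest fitted differences, hippocampus and septum over frontal cortex, were both 0.36 (limma adjusted p = 9.02e-05 and 2.89e-05).

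For Nr3c1 the F test among regions passed (limma F = 10.6, adjusted p = 1.26e-07) at rank 10784 of the 31042 probe sets, of which 65.3% passed. Of its 21 pairs of regions 11 passed, against 33.9% of pairs over all probe sets. None of the 6 steps between neighbours passed, and the closest was hypothalamus over amygdala (0.16, limma adjusted p = 0.05004). That step passed without the 2 hippocampal pADX arrays (0.16, adjusted p = 0.0465) and in Sham arrays alone (0.34, adjusted p = 0.0147), and amygdala over dorsal raphe passed as deposited (0.55, adjusted p = 0.000295). The order within this narrow range depended on the scale. As deposited, 5 of the 6 steps changed sign, and in the Sham arrays alone 3 did, while for Nr3c2 no step between neighbours changed sign on either, although some lost or gained their call. The second Nr3c1 probe set was dim, with a mean of 4.90 and 8 of 80 arrays at the floor, and put the hippocampus highest (5.48) and the dorsal raphe lowest (4.31). That difference was 1.18 (limma adjusted p = 1.91e-07), and 10 of the 21 pairs passed for this probe set.

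**Figure D1:**
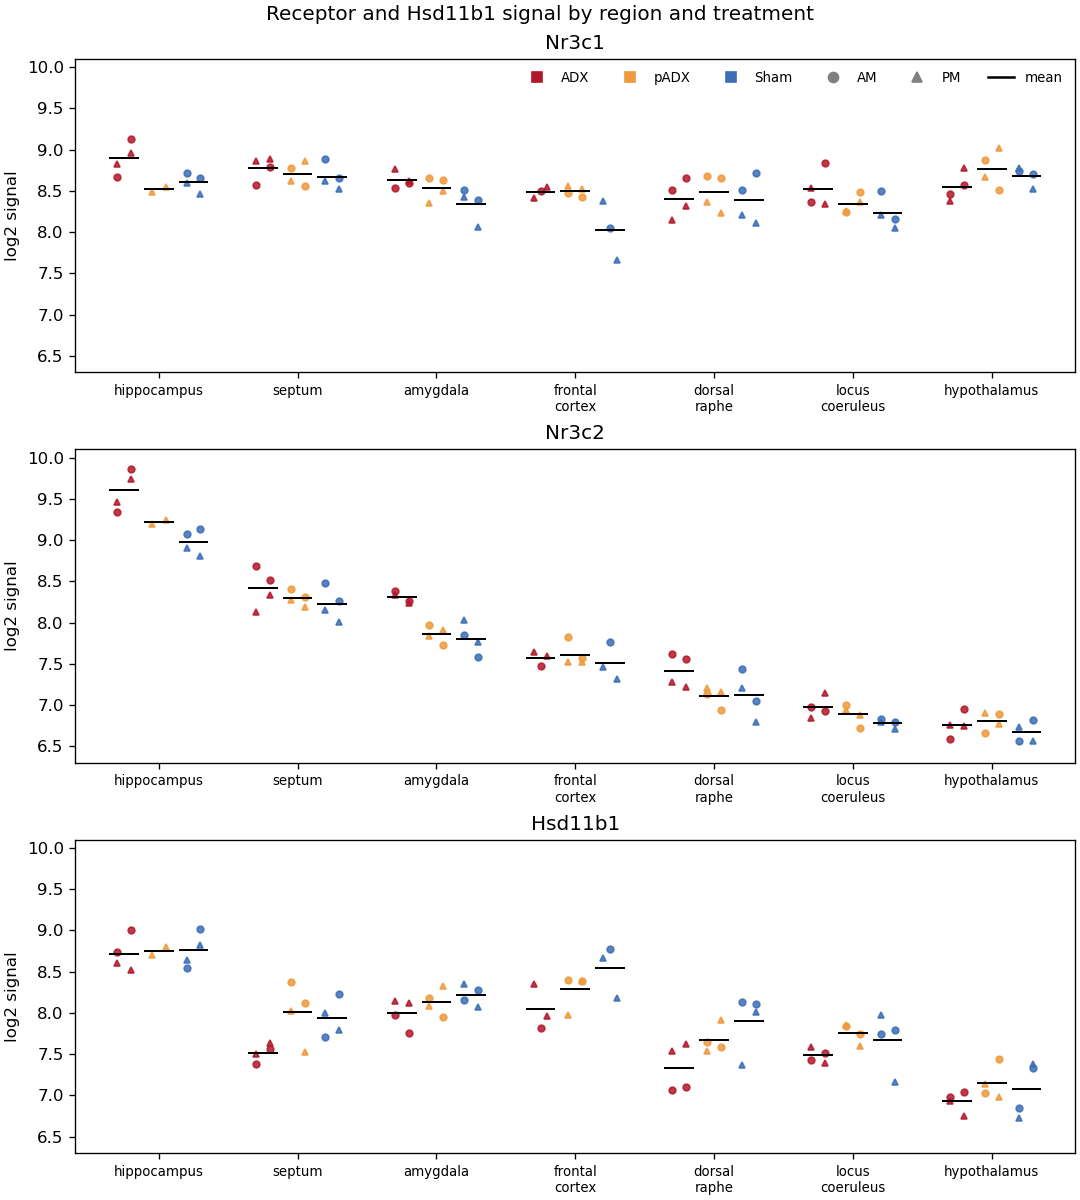
Log2 signal of Nr3c1, Nr3c2 and Hsd11b1 in each array (vertical axes) by brain region (horizontal axis), with ADX, pADX and Sham side by side in red, orange and blue, circles for AM, triangles for PM and a black bar for each mean. The Nr3c2 points step down from the hippocampus (mean 9.28) to the hypothalamus (mean 6.74), while all regions overlap for Nr3c1.

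The balance of the 2 receptors was taken as the log2 signal of Nr3c2 minus that of Nr3c1 in the same array, which cancels any factor that scales a whole array. Because each probe set has its own response, only differences of this log2 ratio between regions or treatments can be read, not its sign. It averaged 0.57 ± 0.18 in the hippocampus (SD, n = 10), -0.41 ± 0.22 in the septum, -0.52 ± 0.22 in the amygdala and -0.78 ± 0.27 in the frontal cortex. It averaged -1.21 ± 0.29 in the dorsal raphe, -1.48 ± 0.23 in the locus coeruleus and -1.92 ± 0.23 in the hypothalamus. All 10 hippocampal arrays (0.30 to 0.78) lay above all arrays of every other region, the highest of which was a septum array at 0.12.

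From hippocampus to hypothalamus the log2 ratio differed by 2.50, a 5.64-fold difference in the balance of mineralocorticoid to glucocorticoid receptor signal. Hippocampus over septum was 0.98, or 1.97-fold. Of the 21 pairs of regions 13 did not overlap in this ratio, for which no share over other pairs of genes was taken. With the brighter Nr3c1 probe set most of the spread came with Nr3c2, since the fitted Nr3c1 differences reached only 0.36. For the second, dim probe set they reached 1.18. Relative to the mean of the 7 regions, the hippocampus stood at 1.39 and the hypothalamus at -1.10, against 1.38 and -1.03 on the values as deposited. With the second Nr3c1 probe set in the ratio they stood at 1.002 and -1.08, and the frontal cortex (-0.41) came below the dorsal raphe (0.11), against 0.037 and -0.39 with the brighter one.

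**Figure D2:**
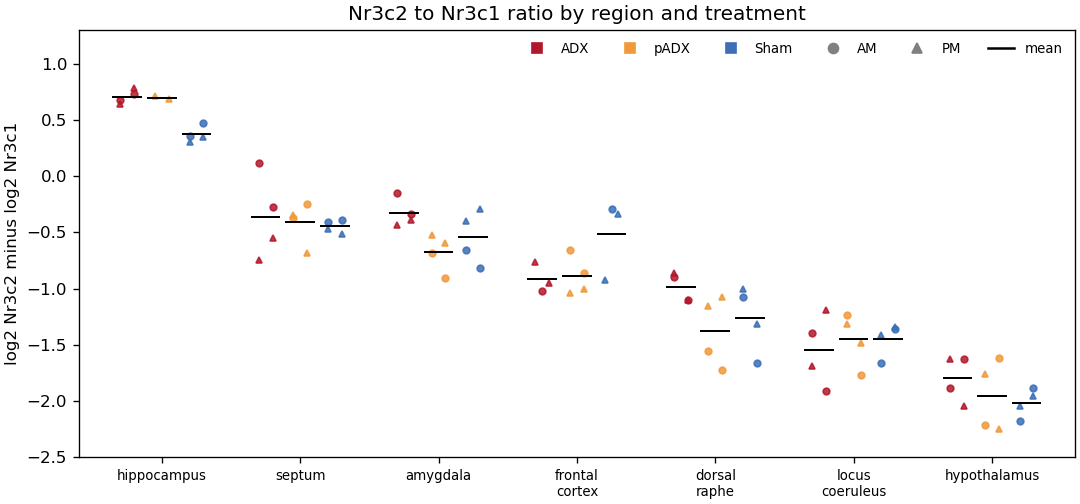
Log2 signal of Nr3c2 minus log2 signal of Nr3c1 in each array (vertical axis) by brain region (horizontal axis), with ADX, pADX and Sham in red, orange and blue and a bar for each mean. The hippocampus lies apart at 0.30 to 0.78, and within it the ADX and pADX arrays lie above the Sham arrays with this brighter Nr3c1 probe set.

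Over the 41 group means, the Pearson correlation was 0.726 for Nr3c2 and Hsd11b1, 0.404 for Nr3c1 and Nr3c2, and -0.112 for Nr3c1 and Hsd11b1. These are descriptions over groups that share regions and arrays. Over the 7 region means the same values were 0.839, 0.536 and 0.0218. Among 9094 genes, those most like Nr3c2 over the 41 groups were Dock4 (0.902), Anks1b (0.900), Tcf4 (0.897), Aph1bl2 (0.894) and Mid1 (0.890), all highest in the hippocampus. Those most like Hsd11b1 were Rbfox1 (0.887), Gna14 (0.885), Lgi1 (0.880), Grin2a (0.877) and Acsl5 (0.875), all highest in the hippocampus and lowest in the hypothalamus. Rbfox1 encodes a neuronal splicing factor and Grin2a a subunit of the NMDA receptor. The closest to Nr3c1 were Sppl2a (0.791), Zfand6 (0.783), Srsf5 (0.782), Tasor2 (0.781) and Usp9x (0.776).

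The first question on treatment was whether the 3 genes differed with ADX across regions. The 5 regions that held all 12 arrays, which leaves out the hippocampus and frontal cortex, were averaged into 12 units, 1 for each treatment, time and replicate. With ADX, the mineralocorticoid receptor RNA was higher and Hsd11b1 RNA lower than with Sham in every unit, but neither passed the test over all probe sets. With pADX no member stood apart from Sham in this way.

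Nr3c2 had log2 unit means of 7.65, 7.64, 7.47 and 7.54 with ADX (AM replicates 1 and 2, then PM replicates 1 and 2). They were 7.44, 7.32, 7.43 and 7.38 with pADX and 7.43, 7.30, 7.38 and 7.17 with Sham. All 4 ADX units lay above all pADX and all Sham units, and the pADX and Sham units overlapped. The ADX minus Sham log2 difference was 0.25 (SE 0.06, 95% interval 0.12 to 0.38, 1.19-fold, limma adjusted p = 0.203). ADX lay above Sham in all units for 1.89% of all probe sets, and 0.132% of them passed the adjusted threshold of 0.05. Over only septum and amygdala, both at the common scale, the Nr3c2 difference was 0.34. On the values as deposited, where the median of all probe sets stood at -0.21, it was -0.036.

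Hsd11b1 had unit means of 7.37, 7.39, 7.54 and 7.50 with ADX, 7.82, 7.77, 7.73 and 7.67 with pADX, and 7.72, 7.95, 7.68 and 7.68 with Sham, in the same order. All 4 ADX units lay below all pADX and all Sham units. The ADX minus Sham log2 difference was -0.31 (SE 0.07, 95% interval -0.46 to -0.15, 1.24-fold, limma adjusted p = 0.186). For 1.87% of all probe sets every ADX unit lay below every Sham unit. Over septum and amygdala it was -0.32, and as deposited it was -0.59.

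Nr3c1 had unit means of 8.49, 8.69, 8.54 and 8.59 with ADX, 8.65, 8.57, 8.45 and 8.60 with pADX, and 8.63, 8.52, 8.45 and 8.25 with Sham. The 3 treatments overlapped, and the lowest value was the Sham PM replicate 2. The ADX minus Sham log2 difference was 0.12 (SE 0.07, 95% interval -0.04 to 0.27, limma adjusted p = 0.701), or -0.17 as deposited. For the second Nr3c1 probe set it was 0.02 (SE 0.13, limma adjusted p = 1).

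**Figure D3:**
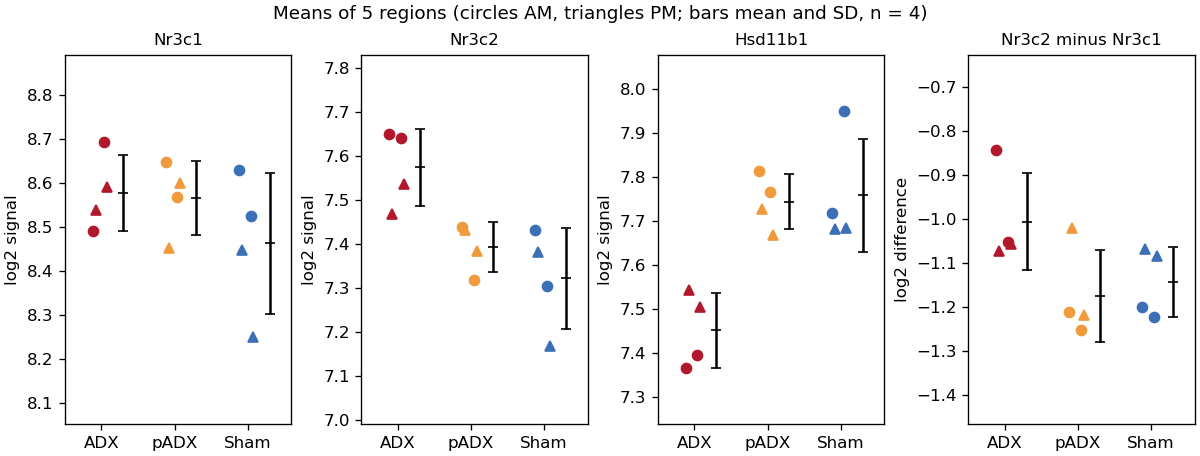
Mean log2 signal over 5 regions of Nr3c1, Nr3c2 and Hsd11b1, and the log2 ratio of Nr3c2 to Nr3c1 (vertical axes), for the 12 units by treatment (horizontal axis: ADX, pADX, Sham), with mean and SD of 4 units each. ADX units lie above all others for Nr3c2 (7.47 to 7.65) and below all others for Hsd11b1 (7.37 to 7.54).

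The pADX minus Sham log2 differences were 0.07 for Nr3c2 (95% interval -0.06 to 0.20, adjusted p = 0.814), -0.01 for Hsd11b1 (-0.17 to 0.14, adjusted p = 1) and 0.10 for Nr3c1 (-0.05 to 0.26, adjusted p = 0.787), all by limma. In that comparison 0.00644% of all probe sets passed. The ADX and pADX comparisons share the Sham units. Set directly against pADX, ADX differed by 0.18 for Nr3c2 (SE 0.06, 95% interval 0.05 to 0.31, limma adjusted p = 0.458) and by -0.29 for Hsd11b1 (SE 0.07, 95% interval -0.45 to -0.14, limma adjusted p = 0.288). Every ADX unit lay above every pADX unit for 1.96% of probe sets and below for 2.03%, and 0.0483% passed. For Nr3c1 ADX minus pADX was 0.01 (95% interval -0.14 to 0.17). As deposited, ADX minus pADX was 0.010 for Nr3c2 and -0.46 for Hsd11b1. The Nr3c2 and Hsd11b1 intervals for ADX minus pADX lay away from 0 after normalization, while no member passed the adjusted threshold in either comparison.

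A second fit over all 80 arrays of the 7 regions, with the 12 combinations of treatment, time and replicate as a random block, was added after the data had been seen. It treats arrays of a combination as nearly independent (consensus correlation 0.00675), so its p-values are too small if they shared a rat. There the ADX minus Sham difference was 0.29 for Nr3c2 (SE 0.05, limma adjusted p = 2.97e-05), -0.29 for Hsd11b1 (SE 0.06, adjusted p = 0.00355) and 0.18 for Nr3c1 (SE 0.05, adjusted p = 0.0486), with 2% of all probe sets passing. ADX minus pADX was 0.18 for Nr3c2 (limma adjusted p = 0.0368) and -0.25 for Hsd11b1 (adjusted p = 0.0264), with 1.17% passing. No member passed for pADX against Sham, where 0.177% did. The sizes were close to those of the 5-region units, while the calls differed.

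By region, the Nr3c2 difference between ADX and Sham was most marked in the hippocampus and amygdala. Hippocampal Nr3c2 was 9.34, 9.87, 9.47 and 9.74 with ADX (AM replicates 1 and 2, then PM replicates 1 and 2), 9.20 and 9.24 with pADX, and 9.08, 9.13, 8.90 and 8.81 with Sham. The 3 treatments did not overlap, with pADX between the other two. ADX minus Sham was 0.62 (SE 0.13, 95% interval 0.32 to 0.92, 1.54-fold, limma adjusted p = 0.308) and pADX minus Sham 0.30 (SE 0.17, limma adjusted p = 0.981). In the hippocampus 2.35% of all probe sets had every ADX array above every Sham array and 4.77% every pADX array, 5.41% had every ADX array above every pADX array, and 0.00322% passed for ADX and 0.0193% for pADX against Sham. The ADX arrays had been scaled unevenly, with trimmed means of 34.1 to 171 against 85.1 to 99.2 in Sham. Their beta-actin 3'/5' ratio, a sign of RNA quality, ran from 1.73 to 2.95, against 2.45 to 2.94 in Sham, and its part was not tested. ADX AM replicate 2, with the highest Nr3c2, had the trimmed mean of 171 and the ratio of 1.73. With single arrays left out, the Nr3c2 difference ran from 0.54 to 0.75. As deposited, the Nr3c2 difference was 0.41.

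Markers were read in the same arrays. Hippocampal marker signals summed to 1896–2527 with ADX, 2298 with pADX and 1786–2228 with Sham, and oligodendrocyte markers to 18616–20163 with ADX and 17143–18631 with Sham, both with overlap. Their part in the Nr3c2 difference was not tested. Nr3c1 in the same arrays was 8.66, 9.13, 8.83 and 8.96 with ADX, 8.49 and 8.55 with pADX, and 8.72, 8.66, 8.60 and 8.46 with Sham. ADX and Sham overlapped for Nr3c1, with a difference of 0.29 (SE 0.10, limma adjusted p = 0.510).

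With the brighter Nr3c1 probe set, the receptor ratio of the hippocampus was higher with ADX and with pADX than with Sham in every array, but not with the second. The log2 ratio of Nr3c2 to Nr3c1 was 0.68, 0.73, 0.64 and 0.78 with ADX, 0.71 and 0.69 with pADX, and 0.36, 0.47, 0.30 and 0.34 with Sham. It averaged 0.71 ± 0.06 with ADX (SD, n = 4), 0.70 ± 0.01 with pADX (SD, n = 2) and 0.37 ± 0.07 with Sham (SD, n = 4). All ADX and pADX arrays lay above all Sham arrays, by 0.34 and 0.33 on average, against the same Sham arrays. No share over other pairs of genes was taken for this separation. Among single probe sets of the hippocampus, 2.35% had every ADX array and 4.77% every pADX array above all Sham arrays. Both pADX arrays are labelled PM, while the Sham arrays are AM and PM. With ADX both receptor signals were higher, Nr3c2 more so, while with pADX Nr3c2 was higher and Nr3c1 lay within the Sham range. With the second, dimmer Nr3c1 probe set the ratio averaged 3.75 ± 0.26 with ADX, 3.54 ± 0.16 with pADX and 3.97 ± 0.60 with Sham (SD, n as above). The treatments then overlapped, and the differences from Sham were -0.22 for ADX and -0.43 for pADX. With the brighter probe set, the ADX and Sham arrays overlapped in the other regions, as did the pADX and Sham arrays, and ADX minus Sham ran from -0.39 in the frontal cortex to 0.27 in the dorsal raphe.

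In the amygdala Nr3c2 was 8.39, 8.26, 8.33 and 8.23 with ADX, 7.98, 7.72, 7.83 and 7.91 with pADX, and 7.85, 7.58, 8.03 and 7.77 with Sham. Every ADX array lay above every pADX and every Sham array, which overlapped each other. ADX minus Sham was 0.50 (SE 0.09, 95% interval 0.29 to 0.71, limma adjusted p = 0.40), and ADX minus pADX was 0.44 (SE 0.09, limma adjusted p = 0.310). All ADX arrays lay above all Sham arrays for 1.52% of probe sets and above all pADX arrays for 1.83%, and 0.0129% and 0.00966% passed. All amygdala arrays shared the common scale, and the difference as deposited was again 0.50. Hippocampal markers in these arrays summed to 660–901 with ADX, 581–712 with pADX and 544–774 with Sham, and their part was not tested.

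Elsewhere the ADX minus Sham differences of Nr3c2 were 0.29 in the dorsal raphe (SE 0.13), 0.19 in the septum (SE 0.08), 0.19 in the locus coeruleus (SE 0.08), 0.09 in the hypothalamus (SE 0.10) and 0.06 in the frontal cortex (SE 0.12). In the locus coeruleus every ADX array lay above every Sham array, as for 1.39% of probe sets. The margin was very small, with the lowest ADX array at 6.843 and the highest Sham array at 6.836. The 7 regional differences were all above 0, although those of the hypothalamus, dorsal raphe and locus coeruleus were below 0 as deposited. The share of all probe sets with the same sign in all 7 regions was not taken, and the regions may share rats. None passed, and few probe sets did in any region, from 0% in the locus coeruleus and 0.00644% in the dorsal raphe to 0.0161% in the hypothalamus and frontal cortex and 0.0226% in the septum. Whether the ADX difference varied among regions was tested by an interaction F over the 80 arrays, which for Nr3c2 gave an adjusted p of 0.0679 in limma, while 2.44% of probe sets passed. For Nr3c1 the adjusted p was 0.209 and for Hsd11b1 0.559. For pADX they were 1 for Nr3c2, 0.657 for Nr3c1 and 0.947 for Hsd11b1, where 1.11% passed. The regional spread of these differences was therefore not shown to exceed that between arrays.

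Hsd11b1 had its lowest ADX values, relative to Sham, in the dorsal raphe, frontal cortex and septum, and not in the hippocampus. In the septum it was 7.38, 7.56, 7.50 and 7.63 with ADX, 8.37, 8.12, 8.02 and 7.52 with pADX, and 7.71, 8.23, 8.003 and 7.79 with Sham. All ADX arrays lay below all Sham arrays, as for 2.45% of probe sets, and 1 pADX array lay among the ADX ones. The difference was -0.41 (SE 0.17, limma adjusted p = 0.455), and 0.0226% of probe sets passed. In the dorsal raphe Hsd11b1 was 7.06, 7.10, 7.54 and 7.62 with ADX, 7.65, 7.59, 7.54 and 7.91 with pADX, and 8.13, 8.11, 7.36 and 8.01 with Sham. There the Sham PM replicate 1 lay among the ADX arrays, and the difference was -0.57 (SE 0.20, limma adjusted p = 0.560), or -0.78 without that array. As deposited, where ADX and Sham arrays of this region differed in scale, it was -1.11 (limma adjusted p = 0.0230).

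In the frontal cortex, with 3 ADX and 3 Sham arrays (AM replicate 2, then PM replicates 1 and 2), Hsd11b1 was 7.81, 8.35 and 7.97 with ADX and 8.78, 8.67 and 8.18 with Sham. The groups overlapped, and the difference was -0.50 (SE 0.22, limma adjusted p = 0.416). Hippocampal Hsd11b1 was 8.74, 9.01, 8.60 and 8.52 with ADX, 8.70 and 8.80 with pADX, and 8.55, 9.02, 8.65 and 8.82 with Sham. These overlapped fully, with a difference of -0.04 (SE 0.12, limma adjusted p = 1). The other differences were -0.22 in the amygdala (SE 0.10), -0.19 in the locus coeruleus (SE 0.15) and -0.14 in the hypothalamus (SE 0.16). The ADX minus Sham difference of Hsd11b1 was thus below 0 in all 7 regions, and near 0 in the hippocampus, the region of its highest signal. With single arrays left out, the hippocampal difference ran from -0.16 to 0.025. The share of all probe sets with the same sign in all 7 regions was not taken, and the regions may share rats.

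For Nr3c1 the frontal cortex and amygdala were the regions in which every ADX array lay above every Sham array. In the frontal cortex it was 8.50, 8.41 and 8.55 with ADX and 8.05, 8.38 and 7.66 with Sham, and 8.48, 8.43, 8.56 and 8.53 in the 4 pADX arrays. The Sham arrays were spread widely and the ADX and pADX arrays narrowly. The differences from the same Sham arrays were 0.45 for ADX (SE 0.17, limma adjusted p = 0.376) and 0.47 for pADX (SE 0.16, limma adjusted p = 0.386). Without the Sham PM replicate 2 they were 0.25 and 0.28. All ADX arrays lay above all Sham arrays for 5.34% of probe sets in this region and all pADX arrays for 3.04%, so such a separation is common there.

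In the amygdala Nr3c1 was 8.53, 8.60, 8.77 and 8.63 with ADX and 8.51, 8.39, 8.43 and 8.06 with Sham, a difference of 0.28 (SE 0.10, limma adjusted p = 0.845). The margin between the lowest ADX and the highest Sham array was small. In the other regions ADX minus Sham was 0.29 in the locus coeruleus (SE 0.12), 0.11 in the septum (SE 0.11), 0.02 in the dorsal raphe (SE 0.06) and -0.13 in the hypothalamus (SE 0.13), none past the threshold.

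**Figure D4:**
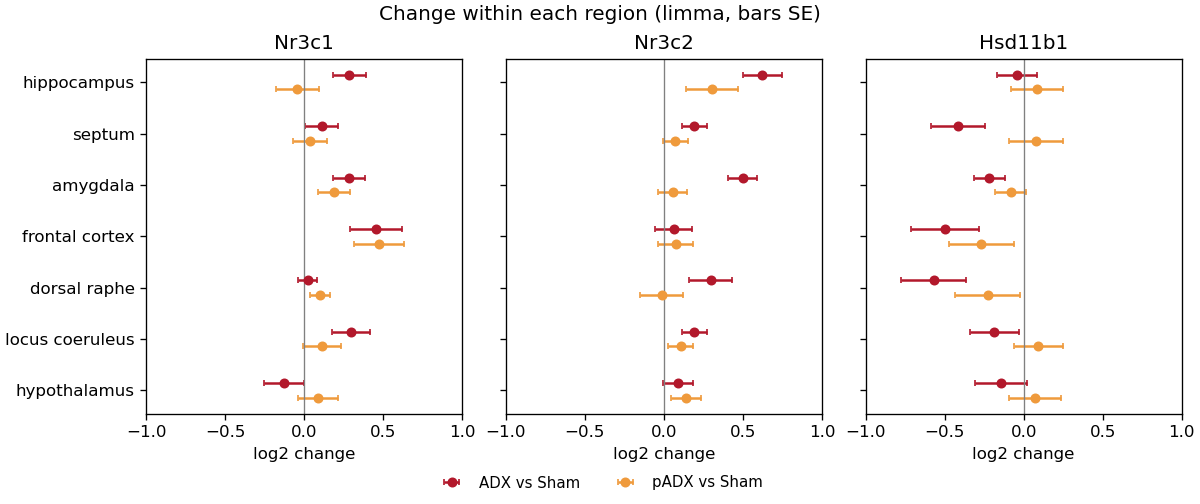
Log2 difference from Sham with its SE (horizontal axes) for ADX and pADX in each of 7 regions (vertical axis), for Nr3c1, Nr3c2 and Hsd11b1. ADX values of Nr3c2 are highest in the hippocampus (0.62) and amygdala (0.50), and ADX values of Hsd11b1 are below 0 in every region.

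Time of day was compared over the same 12 units, with 6 units each. The PM minus AM log2 difference was -0.11 for Nr3c1 (8.48 ± 0.13 PM and 8.59 ± 0.08 AM, SD, limma adjusted p = 0.53), -0.07 for Nr3c2 (7.39 ± 0.13 and 7.46 ± 0.15, adjusted p = 0.665) and -0.03 for Hsd11b1 (7.64 ± 0.09 and 7.67 ± 0.24, adjusted p = 0.902). All 3 overlapped, and 0.00966% of probe sets passed. Within Sham alone, Nr3c1 PM minus AM was -0.23 (SE 0.09, limma adjusted p = 0.530), and 0.0773% of probe sets passed. For Hsd11b1 it was 0.14 within ADX (SE 0.07, limma adjusted p = 0.530) and -0.15 within Sham (SE 0.07, adjusted p = 0.569), and 0.029% passed within ADX. The difference between these, 0.29 (SE 0.10, 95% interval 0.06 to 0.52), had a limma adjusted p of 0.656, and 0.0354% of probe sets passed. No member passed for time of day in a single region either. The clearest separation was Nr3c1 in the dorsal raphe, singled out after its values were seen.

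Dorsal raphe Nr3c1 was 8.14 and 8.31 (ADX), 8.37 and 8.23 (pADX), and 8.21 and 8.11 (Sham) in the PM arrays. It was 8.51 and 8.66 (ADX), 8.68 and 8.66 (pADX), and 8.52 and 8.71 (Sham) in the AM arrays. All 6 PM arrays lay below all 6 AM arrays, as for 0.364% of all probe sets in this region. PM minus AM was -0.39 (SE 0.05, 95% interval -0.51 to -0.28, limma adjusted p = 0.138), and 0.00966% of probe sets passed. As deposited it was -0.47 (adjusted p = 0.873), and both Sham PM arrays but no Sham AM array had the common scale. The beta-actin 3'/5' ratio, a sign of RNA quality, ran from 3.12 to 4.79 in the PM arrays and from 3.52 to 6.03 in the AM arrays, and its part was not tested. In the septum Nr3c2 PM minus AM was -0.26 (SE 0.07, limma adjusted p = 0.371), with overlap.

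The receptors' partners were read from gene lists in the same 12 units. Of 10 measured receptor chaperones and cochaperones, none passed the adjusted threshold with ADX (median log2 difference 0.01, against 0 over all probe sets). Among them, Fkbp4, which promotes receptor transport, stood at 0.04, Hsp90ab1, the constitutive Hsp90, at 0.01, and Fkbp5, an inhibitor of the glucocorticoid receptor that the receptor itself induces, at -0.34 (SE 0.10, limma adjusted p = 0.369) with every ADX unit below every Sham unit. For 1.87% of all probe sets every ADX unit lay below every Sham unit, and 0.132% passed. In the hippocampus, the only single region given here for this gene, Fkbp5 was -1.22 (SE 0.10, limma adjusted p = 0.0603), and 0.00322% of probe sets passed there. Of 9 measured genes of steroid supply none passed (median 0). H6pd, which makes the cofactor for Hsd11b1, stood at -0.04 with 38 of 60 arrays at the floor, and Hsd11b2, the enzyme of the opposite reaction, at 0.03 with 46 of 60 at the floor. None of 10 coregulators (median -0.03) or 3 other steroid receptors passed.

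Among 13 genes known as receptor targets, 3 fell with ADX against Sham and all 13 had differences below 0. Their median was -0.43, against 0 over all probe sets. Those that fell were Sult1a1 (-2.06, limma adjusted p = 0.000554), Glul (-0.43, adjusted p = 0.0349) and Mt2A (-0.44, adjusted p = 0.0322). The list was drawn up with earlier results of these data known, so it is no independent evidence. With pADX none of the 13 passed against the same Sham units (median -0.10), a comparison that averages over time of day. Within Sham, PM minus AM was above 0 for 12 of the 13 (median 0.39), and Gpd1 passed. PM minus AM was lower with pADX than with Sham for all 13 (median difference -0.41), and again Gpd1 passed. Over all probe sets, 0.132% passed for ADX against Sham, 0.00644% for pADX against Sham, 0.0773% within Sham and 0.0451% in the latter comparison. Of the brain cell and blood marker lists, 1 gene passed with ADX, the red cell gene Alas2 (-1.62). Blood markers summed to 675–1474 with ADX, 1709–3184 with pADX and 2529–3363 with Sham, and endothelial markers to 1151–1253 with ADX, 1053–1095 with pADX and 1089–1141 with Sham. Neuron markers overlapped, at 12211–12724 with ADX and 11843–12527 with Sham. The part of these in the Nr3c2 and Hsd11b1 differences was not tested.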

How the data were processed

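The data are 1 value per probe set for each of 82 arrays of rat brain RNA. The deposited values are linear intensities, as their range and skew show. The authors' software was not given in the sources used here, and the trimmed means split the arrays into 45 with a common scale and 37 without. In R 4.3.3 with limma 3.58.1, quantile normalization over all 82 arrays was followed by a floor of 16, which held 27.5% of values, and by log2. Of 31099 probe sets 57 are controls, and the remaining 31042 were tested. Groups came from titles and descriptions, and 2 frontal cortex arrays without a treatment entered no comparison.

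For treatment and time, limma (lmFit, eBayes with a trend) fitted additive terms to 12 unit means over 5 regions, and 6 treatment by time means for time within a treatment. Each region was also fitted alone. Regions were compared over 80 arrays, with the 12 combinations of treatment, time and replicate as a fixed block, as were region by treatment interactions. The Benjamini-Hochberg threshold was 0.05, adjusted over all probe sets, and the number of arrays limits the precision. The receptor ratio was given no test. The method was tested on simulated data.

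Besides the members, the text names some of the lists' genes and, for each member, the 5 genes with the highest correlation over the 41 group means. The members and lists were chosen with earlier results of these data known. Alternatives were the values as deposited, a trimmed mean scale, other floors, dim probe sets left out, the replicate number as a block, the beta-actin 3'/5' ratio as a covariate, and single replicates or regions left out. RefSeq promoters of build GRCr8 were matched by symbol for 1 of the 3 genes. The same replicate number did not pair units, since over 15 pairs the correlation of their deviations ran from -0.072 to 0.056.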

Additional observations from a re-analysis of the deposited data

Results flagged for a closer look

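Within groups of 4 to 10 arrays or units, 84 groups were examined for 1 value far from the others, and 5 held one. Chance alone gives about 1 in 20 groups. Nr3c2 in the frontal cortex was 7.82 in pADX AM replicate 1, with the next pADX array at 7.57. Hsd11b1 in the frontal cortex was 7.98 in pADX PM replicate 1, with the next pADX array at 8.39. In the dorsal raphe Hsd11b1 was 7.36 in Sham PM replicate 1, with the next Sham array at 8.01, and the ADX minus Sham difference there was -0.78 without it against -0.57 with it. Among the unit means over 5 regions, Hsd11b1 was 7.95 in Sham AM replicate 2, with the next Sham unit at 7.72. The log2 ratio of Nr3c2 to Nr3c1 was -0.84 in the ADX AM replicate 1 unit, with the next ADX unit at -1.05.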

How the results depend on the processing

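Across the 5 regions, ADX minus Sham was 0.21 to 0.29 for Nr3c2 (limma adjusted p 0.205 to 0.381) and -0.35 to -0.24 for Hsd11b1 (0.196 to 0.354) with each replicate left out in turn. Both kept their direction, short of the threshold, under the trimmed mean scale, both floors, the leaving out of dim probe sets, the replicate block, the beta-actin covariate and the leaving out of any region. As deposited, where the median of all probe sets shifted by -0.21 for ADX minus Sham, -0.07 for pADX minus Sham and -0.12 for ADX minus pADX, ADX minus Sham was -0.17 for Nr3c1, -0.036 for Nr3c2 and -0.59 for Hsd11b1 (adjusted p = 0.00151). There pADX minus Sham was -0.016 for Nr3c1 and -0.047 for Nr3c2, and ADX minus pADX was -0.16 for Nr3c1, 0.010 for Nr3c2 and -0.46 for Hsd11b1 (adjusted p = 0.0158). Relative to that shift of ADX minus Sham, Nr3c2 still lay above and Hsd11b1 below the median probe set. The fit of 7 regions by array, chosen after seeing the data, gave 0.18, 0.29 and -0.29 for Nr3c1, Nr3c2 and Hsd11b1 in ADX minus Sham, and 0.18 and -0.25 for Nr3c2 and Hsd11b1 in ADX minus pADX, all past the threshold. The cause of these changes was not tested.

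The number of probe sets past the threshold for ADX minus Sham, pADX minus Sham, ADX minus pADX and PM minus AM was 41, 2, 15 and 3. With single replicates left out it ran from 8 (without Sham AM replicate 2) to 43, 1 to 8, 4 to 28 and 0 to 2. It became 13715, 0, 3581 and 0 as deposited, 620, 55, 364 and 352 in the 7-region fit, and 111, 1, 69 and 11 with dim probe sets left out. The trimmed mean scale gave 0 for pADX and 0 for time, a floor of 32 gave 17 for ADX and 0 for pADX, and a floor of 1 gave 103 for ADX, 0 for pADX and 51 for ADX minus pADX. The beta-actin covariate gave 13 for ADX, and septum and amygdala alone gave 18, 1 and 4 for the first 3 comparisons. Leaving out the septum gave 1 for pADX and 5 for time, the hypothalamus 17 for ADX, the amygdala 0, 7 and 0 for pADX, ADX minus pADX and time, the dorsal raphe 9 and 0 for ADX minus pADX and time, and the locus coeruleus 10 for ADX. The replicate block gave 21 for ADX and 6 for time, with adjusted p of 0.736, 0.197 and 0.255 for Nr3c1, Nr3c2 and Hsd11b1, and changed no call of a member.

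Several differences changed sign. Across 5 regions Nr3c1 ADX minus pADX was -0.0041 without the septum, -0.0099 without the amygdala, -0.031 without the locus coeruleus and -0.015 to 0.065 over left-out replicates. Hsd11b1 pADX minus Sham was 0.0035 without the amygdala, 0.040 without the dorsal raphe and -0.036 to 0.052 over replicates, and Hsd11b1 PM minus AM was -0.060 to 0.010. As deposited, regional ADX minus Sham was -0.24 (hypothalamus), -0.25 (dorsal raphe) and -0.36 (locus coeruleus) for Nr3c2, and -0.50 (dorsal raphe, adjusted p = 0.0376) and -0.28 (locus coeruleus) for Nr3c1. Also as deposited, pADX minus Sham was -0.010 (hypothalamus), 0.20 (hippocampus), -0.23 (dorsal raphe) and -0.054 (locus coeruleus) for Nr3c1, -0.068 (locus coeruleus) for Nr3c2, and -0.0039 (hypothalamus) and -0.075 (locus coeruleus) for Hsd11b1, and without a time term the hippocampal Hsd11b1 value was -0.0061. Over left-out replicates, ADX minus Sham ran from -0.018 to 0.20 for Nr3c2 in the frontal cortex, -0.16 to 0.025 for Hsd11b1 in the hippocampus and -0.019 to 0.069 for Nr3c1 in the dorsal raphe. For pADX minus Sham the ranges were -0.0013 to 0.20 (frontal cortex), -0.020 to 0.13 (amygdala) and -0.11 to 0.076 (dorsal raphe) for Nr3c2, -0.036 to 0.23 (septum), -0.033 to 0.21 (hypothalamus) and -0.082 to 0.22 (locus coeruleus) for Hsd11b1, and -0.025 to 0.12 (septum), -0.0017 to 0.18 (hypothalamus) and -0.11 to 0.0094 (hippocampus) for Nr3c1. Between neighbouring regions as deposited, Nr3c1 gave 0.80 (septum over hippocampus, adjusted p = 7.00e-07), -0.066, -0.54 (hypothalamus over amygdala, adjusted p = 0.000315), -0.16 and -0.27, and Hsd11b1 gave -0.33 (hippocampus over frontal cortex). The trimmed mean scale gave -0.021 for Nr3c1 (locus coeruleus over frontal cortex) and -0.0030 for Hsd11b1 (locus coeruleus over dorsal raphe), and Sham arrays alone gave 0.062, -0.075 and -0.039 for Nr3c1 and -0.23 for Hsd11b1. With the second Nr3c1 probe set the ratio of hippocampus over hypothalamus was 2.08 against 2.50, and across 5 regions pADX minus Sham was 0.32 against -0.03. In the hippocampus that ratio was -0.22 for ADX minus Sham and -0.43 for pADX minus Sham, against 0.34 and 0.33. Groups of 2 arrays, unequal scaling between regions and the unknown sharing of rats limit the precision of all these values.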

Other observations

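The 2 frontal cortex arrays without a treatment label had log2 signals of 8.50 and 8.54 for Nr3c1, 7.53 and 7.67 for Nr3c2, and 8.26 and 8.04 for Hsd11b1. The second Nr3c1 probe set read 4.26 and 5.03 in them.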
